A study of Mus musculus with 16 samples.

Results

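The genes described here were 10 members of the protease and inhibitor families that remodel the extracellular matrix: Adamts1, Adamts4, Adamts5 and Adamts9, Mmp2 and Mmp14, and the inhibitors Timp1, Timp2, Timp3 and Timp4. They were chosen by name as the entries carrying these symbols among the 18872 genes of the expression matrix, and all 10 were found. Values were in FPKM, a fragment count divided by gene length and sequencing depth, so that levels can be compared between genes. Of the 10, 8 had a mean of at least 1 FPKM over all mice and were tested together with the other genes above that level (10519 in all), and Timp1 and Adamts4 fell below it.

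The RNA came from whole quadriceps of 16 male mice aged 13 to 15 weeks, split by genotype, MM (WT) or VV, and by treatment, sedentary or exercised, with 4 mice in each of the 4 groups. VV mice are homozygous for a CaMK2gVV knock-in, in which both oxidisable methionines of the regulatory domain of the γ isoform of CaMKII, a calcium-activated kinase, are replaced by valine in every cell, and MM mice are their wild-type littermates. Exercised mice ran 350 m once on an inclined treadmill and were sampled 3 h later, whereas sedentary mice did not run. All mice had been acclimated to the treadmill and rested before the experiment, and food was withdrawn on the day of sampling. Each mouse was 1 sample, and mice are named here by the number in their titles. What the part of that number before the dash stands for is unknown.

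ADAMTS enzymes are secreted metalloproteinases with thrombospondin motifs. ADAMTS1, ADAMTS4, ADAMTS5 and ADAMTS9 cleave large hyaluronan-binding proteoglycans such as versican and aggrecan. MMP14 is anchored in the cell membrane, where it cleaves collagen and, with TIMP2 as a bridge, activates the precursor of the gelatinase MMP2. TIMPs are secreted proteins that bind and block metalloproteinases, and TIMP3, which is held in the matrix, also inhibits ADAMTS4 and ADAMTS5.

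Libraries differed little in size. Relative depth, estimated from the most frequent ratio of low values between each mouse and a reference mouse, ran from 1 to 1.23. The FPKM values of a mouse summed to between 470634 and 513468, and the 10 highest genes took 28.9 to 33.4% of that sum. The muscle fibre markers (10 of 10 measured) defined the tissue, with a mean log2 level between 12.37 and 12.48 in the 4 groups. In bulk RNA of this kind, fewer cells of a type and less RNA per cell cannot be told apart.

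Only Adamts9 and Timp3 passed a test in any of the 6 comparisons made, both of them higher after exercise, and the start regions of these 2 genes are shown for that reason. Adamts9 lies on chromosome 6 (GRCm38, 92772699 to 92943492, minus strand) and Timp3 on chromosome 10 (86300372 to 86349506, plus strand). The sequences are the 250 bases before the RefSeq start site, from the GRCm38.p6 build, at chr6:92943535-92943784 (minus strand) and chr10:86300162-86300411 (plus strand). The gene positions are from GENCODE, whose start sites differ from those of RefSeq. The GENCODE start of Timp3 lies inside its printed stretch, and that of Adamts9 lies past the end of its stretch. Capitals mark matches to the motifs searched on both strands.
Adamts9: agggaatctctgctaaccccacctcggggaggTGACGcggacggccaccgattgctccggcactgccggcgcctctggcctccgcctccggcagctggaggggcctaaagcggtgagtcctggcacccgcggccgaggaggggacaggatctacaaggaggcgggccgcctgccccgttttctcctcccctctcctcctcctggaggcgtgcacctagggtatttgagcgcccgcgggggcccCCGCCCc
Timp3: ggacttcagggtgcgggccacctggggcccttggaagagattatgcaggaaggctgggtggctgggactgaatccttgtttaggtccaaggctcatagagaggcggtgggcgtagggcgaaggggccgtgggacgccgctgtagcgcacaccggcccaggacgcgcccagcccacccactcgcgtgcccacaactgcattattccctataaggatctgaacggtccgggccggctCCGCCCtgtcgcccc

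The search covered windows of 300 bases, 250 before and 50 after the start site, which were at hand for 7 of the 10 genes. Adamts9 held one TGACG, the core of the cyclic AMP response element (CRE), at position -218 and one GC box (GGGCGG, read as CCGCCC on the other strand) at -7. Timp3 held a GC box at -15 and another at +14. Of all 32851 windows, 20.8% held TGACG and 35.7% held a GC box, so both are common matches. Adamts1 held a TGACG at -170, 3 GC boxes and a TATAAA at -32, the last found in 13.6% of windows. None of the 7 windows matched the AP-1 motif TGANTCA (7.81% of all windows), the full CRE TGACGTCA (1.79%), the nuclear receptor motif AAAGGTCA (1.51%) or the CArG box (1.63%). The motifs marked in the printed stretches do not overlap one another. GC content was 70.0% in the Adamts9 window and 67.0% in the Timp3 window, against a median of 52.7% over all windows. It ran from 53.3% (Timp4) to 68.7% (Timp2) in the other 5.

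The inhibitor transcripts Timp3, Timp2 and Timp4, but not Timp1, were the most abundant of the 10. Timp3 was highest, with a mean of 65.2 ± 11.4 FPKM (SD, n = 16 mice), followed by Timp2 at 42.8 ± 8.70 and Timp4, an inhibitor known for its high level in heart and muscle, at 31.0 ± 5.27 FPKM. In each of the 16 mice the order was Timp3, Timp2, Timp4, with Mmp2 below Timp4. The gelatinase gene Mmp2 (19.4 ± 4.76 FPKM) and the proteoglycanase gene Adamts1 (17.9 ± 6.42 FPKM) came next and were not separated, since Mmp2 was the higher in 12 of 16 mice. Mmp14 followed at 4.29 ± 0.957 FPKM. Adamts5 (2.38 ± 0.525 FPKM) and Adamts9 (2.21 ± 0.791 FPKM) were again not separated, with Adamts5 higher in 11 of 16 mice. Timp1, the TIMP best known for induction in injured and inflamed tissue, had 0.707 ± 0.349 FPKM and Adamts4 0.0532 ± 0.0453 FPKM. Every other neighbouring pair in this order kept it in 16 of 16 mice. In the plot of levels the 10 genes span more than 3 powers of 10, from Adamts4 to Timp3.

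**Figure D1:**
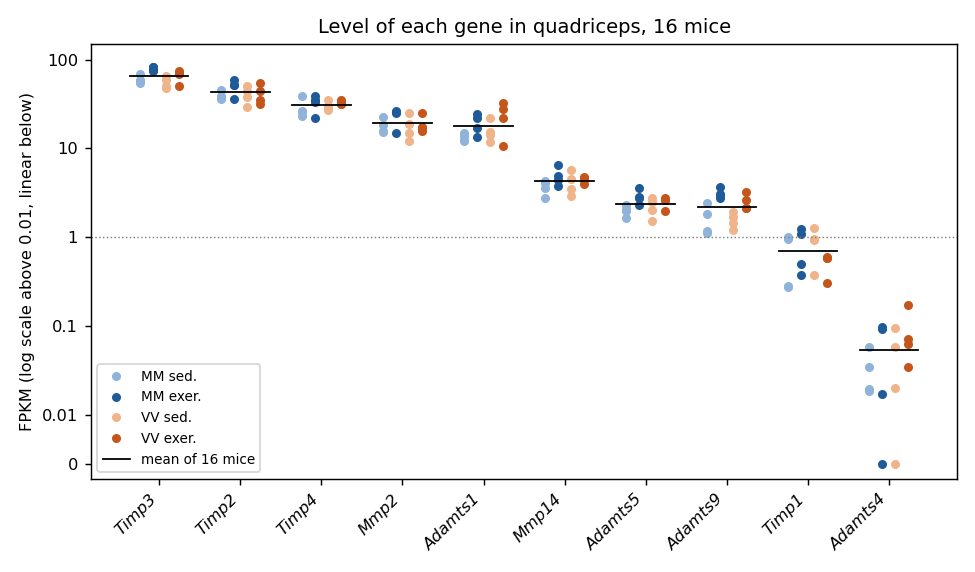
FPKM of the 10 genes in each of the 16 mice, on a vertical axis that is logarithmic above 0.01 and linear below it; colours mark the 4 groups (MM or VV, sedentary or exercised), black bars the mean over all mice, and the dotted line the 1 FPKM minimum for testing. Timp3 (mean 65.2 FPKM) is at the top, and Adamts4 (mean 0.0532 FPKM, 2 mice at 0) at the bottom.

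Adamts9 encodes a protease that cleaves versican and aggrecan and was the member that differed most with exercise. In sedentary MM mice it had 2.43 (2032-3), 1.84 (2074-1), 1.16 (2127-1) and 1.13 FPKM (2127-3). In exercised MM mice it had 3.68 (2161-4), 3.07 (2161-9), 2.99 (2246-4) and 2.73 FPKM (2297-3). Every exercised MM mouse was above every sedentary MM mouse, and the 2 lowest sedentary values came from the mice whose titles share the number 2127. In sedentary VV mice the values were 1.69 (2074-2), 1.94 (2074-5), 1.20 (2126-4) and 1.45 FPKM (2296-5). In exercised VV mice they were 2.59 (2161-5), 3.22 (2161-7), 2.14 (2296-2) and 2.14 FPKM (2296-3). The VV groups did not overlap either.

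On the log2(FPKM + 0.1) scale, Adamts9 rose by 0.95 ± 0.22 (SE) in MM mice, a 1.93-fold difference (limma, Benjamini-Hochberg adjusted p = 0.0431 over all tested genes). Of all tested genes, 1.08% were called higher after exercise in MM, and among the 8 tested members Adamts9 was the 1 called. The MM call was kept in only 4 of the 16 fits that left out 1 mouse (without 2032-3, 2074-5, 2126-4 or 2161-7), and adjusted p rose to as much as 0.164 in the others. With the title number, which some groups share, as a random block, the MM difference was 0.88 and its call was lost (adjusted p = 0.0830, limma). No title number holds both sedentary and exercised MM mice, so exercise and title number cannot be told apart in MM. In VV mice the difference was 0.65 ± 0.22 (1.57-fold), which did not pass (unadjusted p = 0.00871 and adjusted p = 0.311 in limma's test), and none of the 8 members was called there, against 0.257% of all genes called higher. Over both genotypes Adamts9 rose by 0.80 ± 0.16, or 1.74-fold (adjusted p = 0.00713, limma), and this call held in each of the 23 alternatives in which the gene was tested. Non-overlapping groups with exercise higher were seen in 3.39% of all tested genes in MM and 1.40% in VV.

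The mice numbered 2296 are the only ones of 1 title number that hold both sedentary and exercised animals, all of them VV. Among these, Adamts9 was 1.45 FPKM in the sedentary mouse and 2.14 FPKM in both exercised mice. Timp3 was 47.8 FPKM in the sedentary mouse against 50.9 and 72.1 FPKM in the exercised ones. With a single sedentary animal these values have no test.

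Timp3 encodes the matrix-bound inhibitor of ADAMTS proteases and of several MMPs. In sedentary MM mice it had 54.9 (2032-3), 68.6 (2074-1), 59.2 (2127-1) and 57.4 FPKM (2127-3). In exercised MM mice it had 81.6 (2161-4), 82.5 (2161-9), 77.9 (2246-4) and 73.7 FPKM (2297-3). The 4 exercised MM mice were all above the 4 sedentary ones. In VV mice it had 66.1 (2074-2), 49.9 (2074-5), 58.5 (2126-4) and 47.8 FPKM (2296-5) at rest. After exercise it had 73.9 (2161-5), 68.8 (2161-7), 50.9 (2296-2) and 72.1 FPKM (2296-3). Here the groups overlapped, because mouse 2296-2 was within the sedentary range.

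Over both genotypes Timp3 rose by 0.33 ± 0.084 on the log2 scale, a 1.25-fold difference (limma, adjusted p = 0.0428). It and Adamts9 were the 2 of 8 tested members called in this comparison, in which 1.98% of all tested genes were called higher. The Timp3 call was kept in only 3 of the 16 fits that left out 1 mouse (without 2074-1, 2074-2 or 2296-2). In the rest of those fits adjusted p reached 0.0921, and with the title number as a random block the call was lost (adjusted p = 0.106, limma). Within MM mice the difference was 0.40 ± 0.12 (unadjusted p = 0.00392, adjusted p = 0.155, limma) and within VV mice 0.25 ± 0.12 (adjusted p = 0.492, limma).

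The plot of values by mouse shows the 2 called genes beside the others.

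**Figure D2:**
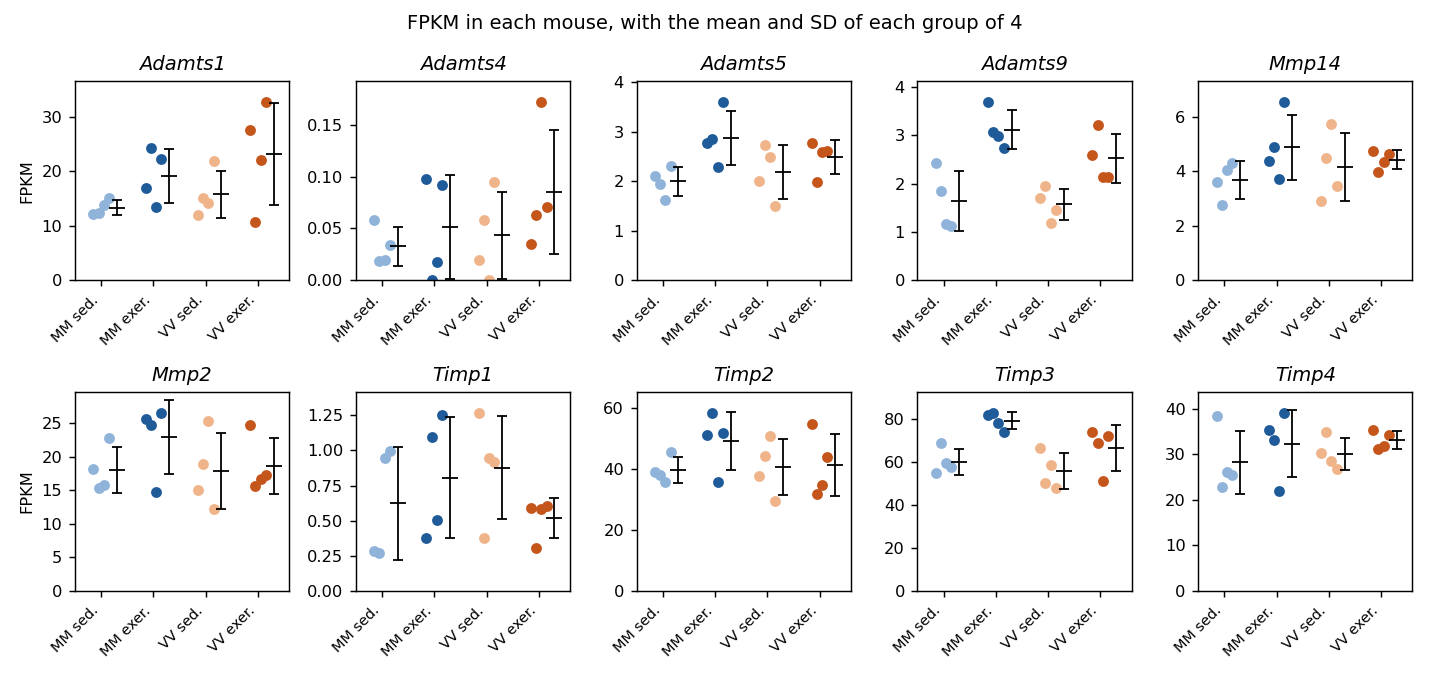
FPKM of each of the 10 genes by mouse (points), with the mean and SD of each group of 4 mice (black); sed. is sedentary, exer. exercised, and every axis starts at 0. Exercised mice are all above sedentary mice for Adamts9 in both genotypes and for Timp3 in MM, and the groups of the other genes overlap.

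Adamts1 encodes a protease that cleaves versican and aggrecan and inhibits blood vessel growth. It had 12.1, 12.3, 13.9 and 15.0 FPKM in sedentary MM mice and 16.9, 24.3, 13.4 and 22.2 FPKM in exercised MM mice, and mouse 2246-4 was the exercised mouse within the sedentary range. The VV mice had 11.9, 15.1, 14.3 and 21.9 FPKM at rest. After exercise it had 27.5, 10.8, 22.1 and 32.6 FPKM, and the 10.8 of mouse 2161-7 was the lowest value in the study. That mouse had the highest Adamts9 value of its group. Over both genotypes the Adamts1 difference was 0.48 ± 0.20 log2 (adjusted p = 0.207, limma). Leaving out mouse 2161-7 gave 0.65 with an adjusted p of 0.0249 (limma), the only alternative in which Adamts1 passed.

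Adamts5, the main aggrecan-cleaving enzyme of mouse cartilage, lies beside Adamts1 on chromosome 16 on the same strand, 53059 bases away. It ranged from 1.62 to 2.31 FPKM in sedentary MM mice and from 2.28 to 3.59 FPKM in exercised MM mice, and the groups overlapped by mouse 2246-4. In VV mice it ranged from 1.51 to 2.74 FPKM at rest and from 1.99 to 2.76 FPKM after exercise. The difference was 0.50 ± 0.18 log2 in MM (unadjusted p = 0.0151, adjusted p = 0.302, limma), 0.21 ± 0.18 in VV and 0.35 ± 0.13 over both (adjusted p = 0.158, limma).

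Adamts4, an aggrecanase inducible by inflammatory cytokines, was close to the detection limit. Corrected for depth, its values were whole multiples of the smallest one to within 0.01, and if that step is 1 fragment the mice held between 0 and 10 fragments. Sedentary MM mice held 7 such steps in all, exercised MM mice 11, sedentary VV mice 9 and exercised VV mice 19. Mice 2161-9 and 2126-4 were at 0, which allows up to 3 steps, or 0.0617 and 0.0533 FPKM (counting error only). Exact two-sided permutation tests over the 70 ways of assigning 4 and 4 mice gave p between 0.286 and 0.743 for its 4 pairwise comparisons. The smallest p this design allows is 0.0286.

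Mmp14 and Mmp2 form an activation pair. Mmp14 had 3.62, 2.75, 4.07 and 4.31 FPKM in sedentary MM mice and 4.38, 4.90, 3.73 and 6.53 FPKM in exercised MM mice. For VV mice the values were 2.92, 4.50, 5.75 and 3.47 FPKM at rest and 4.75, 3.98, 4.35 and 4.64 FPKM after exercise. Groups overlapped in both genotypes, and the exercise difference over both was 0.26 ± 0.14 log2 (adjusted p = 0.328, limma).

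Mmp2 had 18.2, 15.4, 15.9 and 22.8 FPKM in sedentary MM mice and 25.7, 24.7, 14.8 and 26.5 FPKM in exercised MM mice. VV mice had 15.0, 19.0, 25.3 and 12.3 FPKM at rest and 24.8, 15.7, 16.8 and 17.4 FPKM after exercise. Thus 3 of the 4 exercised MM mice were above all sedentary MM mice, and the fourth, 2246-4, was below them all. The MM difference was 0.32 ± 0.23 log2 (adjusted p = 0.654, limma), and 0.52 without mouse 2246-4 (adjusted p = 0.357, limma).

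Among the other inhibitors, Timp2 ran from 35.9 to 45.7 FPKM in sedentary MM mice and had 51.1, 58.5, 35.9 and 51.9 FPKM in exercised MM mice. In VV mice it ran from 29.5 to 51.0 FPKM at rest and from 32.0 to 54.8 FPKM after exercise. Its difference was 0.29 ± 0.19 log2 in MM and 0.02 ± 0.19 in VV. Timp4 ran from 22.9 to 38.5 FPKM at rest and from 21.9 to 39.0 FPKM after exercise in MM, and from 26.7 to 34.9 FPKM at rest and from 31.2 to 35.3 FPKM after exercise in VV. Its difference over both genotypes was 0.17 ± 0.12 log2 (adjusted p = 0.452, limma).

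Timp1 had 0.283, 0.272, 0.944 and 0.994 FPKM in sedentary MM mice, where both high values came from the 2127 mice, and 0.378, 1.10, 0.502 and 1.25 FPKM in exercised MM mice. In VV mice it had 1.27, 0.378, 0.949 and 0.917 FPKM at rest and 0.588, 0.307, 0.580 and 0.602 FPKM after exercise. The groups overlapped in both genotypes. Exact two-sided permutation p was 0.514 for exercise in MM and 0.114 for exercise in VV, where the mean went from 0.877 to 0.519 FPKM.

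All 8 tested members had an exercise difference above 0 in both genotypes, with medians of 0.39 log2 in MM, 0.17 in VV and 0.29 over both. The medians of all 10519 tested genes were -0.05, -0.08 and -0.06. At an unadjusted p under the 0.05 threshold the members numbered 3 in MM, 2 in VV and 4 over both (Adamts1, Adamts5, Adamts9 and Timp3). Of all tested genes 10.7%, 10.1% and 18.7% were under it in the same comparisons, in either direction. Several of these genes varied together across mice, and the counts are a description only.

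**Figure D3:**
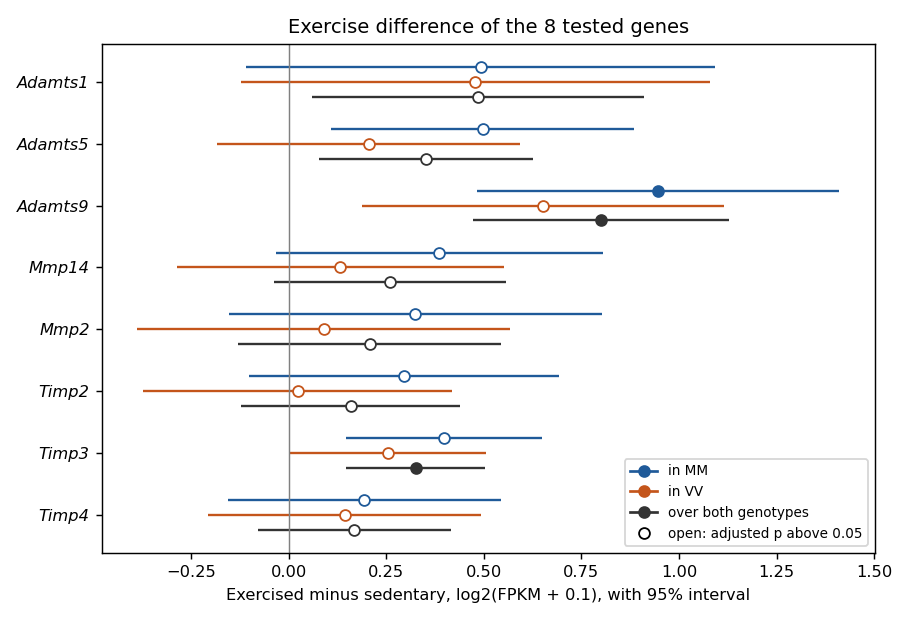
Exercised minus sedentary difference of the 8 tested genes on the log2(FPKM + 0.1) scale (points) with its 95% interval (lines), in MM, in VV and over both genotypes; filled points passed an adjusted p of 0.05. All points lie above 0, the filled ones are Adamts9 in MM (0.95) and over both genotypes (0.80) and Timp3 over both (0.33).

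Whether the response differed between genotypes was tested directly. The VV minus MM difference of the exercise effects was below 0 for all 8 members. Its median was -0.24 log2, against -0.04 over all tested genes. It ran from -0.29 ± 0.31 log2 for Adamts9 and -0.29 ± 0.26 for Adamts5 to -0.01 ± 0.40 for Adamts1. None passed, nor did any gene at all (0% of 10519 tested called), and 195 genes (1.85%) had an unadjusted p under 0.05, none of them a member. The 95% interval for Adamts9 was -0.95 to 0.36, which holds differences of either sign. Differences of the exercise effects were also below 0 for all 9 tested fibroblast markers and all 8 tested macrophage markers. For endothelial markers 6 of 10 were above 0.

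At rest, VV and MM mice differed by between -0.12 ± 0.12 log2 (Timp3) and 0.21 ± 0.28 (Adamts1), with none of the 8 called, against 0.00951% of all genes. After exercise, 6 of the 8 members had a VV minus MM difference below 0. The median of the 8 was -0.23 log2, against -0.08 for all tested genes. The member with the smallest p was Timp3, at -0.26 ± 0.12 (unadjusted p = 0.0418, adjusted p = 0.627, limma). Mean Timp3 was 78.9 ± 3.99 FPKM (SD, n = 4) in exercised MM mice and 66.4 ± 10.6 FPKM in exercised VV mice. None of the members and 0% of all genes were called after exercise.

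Several members varied together from mouse to mouse. Over 16 mice, Mmp2 and Timp2 had a Pearson r of 0.93 (Spearman rho 0.87, adjusted permutation p = 0.000104 and 0.000433). It was 0.91 without the 2 mice farthest from the Mmp2 median and 0.92 after group means were removed. Mmp2 and Mmp14 had r = 0.77 (rho 0.84, adjusted permutation p = 0.00208 and 0.000676). Adamts5 and Mmp2 had r = 0.80 (rho 0.81, adjusted permutation p = 0.00126 and 0.000993), and 0.68 without the 2 mice farthest from the Adamts5 median. In all 3 pairs r was above 0 within each of the 4 groups. These were among 52 relations computed, of which 16 passed by Pearson's r, and permutation p-values from 100000 resamples were adjusted over the 52. The unadjusted p behind an adjusted 0.000104 was 1e-05, the smallest that this number of resamples can give. Resampling shuffled all 16 mice freely, so these p-values take no account of group or of shared title numbers.

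Adamts9 was not in that set. Its r with Mmp2 was 0.22, with Mmp14 0.13 and with Timp2 0.22 (adjusted permutation p = 0.476, 0.665 and 0.476). With group means removed, these became -0.16, -0.47 and -0.13. Adamts9 and Timp3 had r = 0.65 over all mice (rho 0.70, adjusted permutation p = 0.0276 and 0.0102), which became 0.12 with group means removed.

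The members were also set against cell type markers. The mean log2 level of the fibroblast and fibro-adipogenic markers (9 of 10 measured, including Pdgfra, Col1a1 and Dpt, none at 0 in any mouse) averaged 3.58 at rest and 4.03 after exercise in MM mice, and 3.73 and 3.74 in VV mice. Their summed FPKM ran from 135 to 222 at rest and from 126 to 275 after exercise in MM, and from 142 to 265 at rest and from 161 to 269.9 after exercise in VV. Mmp2 followed this marker mean with r = 0.97 (rho 0.96, adjusted permutation p = 0.000104 and 0.000173) and Timp2 with r = 0.92 (rho 0.89, adjusted permutation p = 0.000104 and 0.000312). Without the 2 mice farthest from the marker median these were 0.97 and 0.90. Adamts5 (r = 0.78) and Mmp14 (r = 0.77) also passed. Timp4 passed by rho only (r = 0.58, rho 0.71, adjusted permutation p = 0.0586 and 0.0102). Adamts1 (r = 0.37), Adamts9 (r = 0.26) and Timp3 (r = 0.36) did not pass. Removing group means gave 0.99 for Mmp2 and -0.09 for Adamts9.

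On this marker mean 5 mice stood together between 4.25 and 4.28 (exercised MM 2161-4, 2161-9 and 2297-3, exercised VV 2161-5 and sedentary VV 2126-4). The other 11 lay between 3.29 and 3.92. Among those 11, r with the marker mean was 0.92 for Mmp2, 0.77 for Timp2 (rho 0.95 and 0.73), -0.15 for Adamts9 and -0.32 for Timp3, so the relation of Mmp2 did not rest on the 5. Mouse 2246-4 had the lowest fibroblast marker mean of the exercised MM mice and was also the lowest of them in Mmp2, Timp2, Mmp14, Adamts5, Adamts1 and Timp4, but not in Adamts9 or Timp3. By summed FPKM this mouse was also highest of all mice in adipocyte markers (325) and lowest in tendon markers (70.3). Its macrophage marker sum (63.9) was the lowest of the exercised MM mice. The part of any of these cell types in the exercise differences of Mmp2, Timp2, Mmp14 and Adamts5 was not tested.

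**Figure D4:**
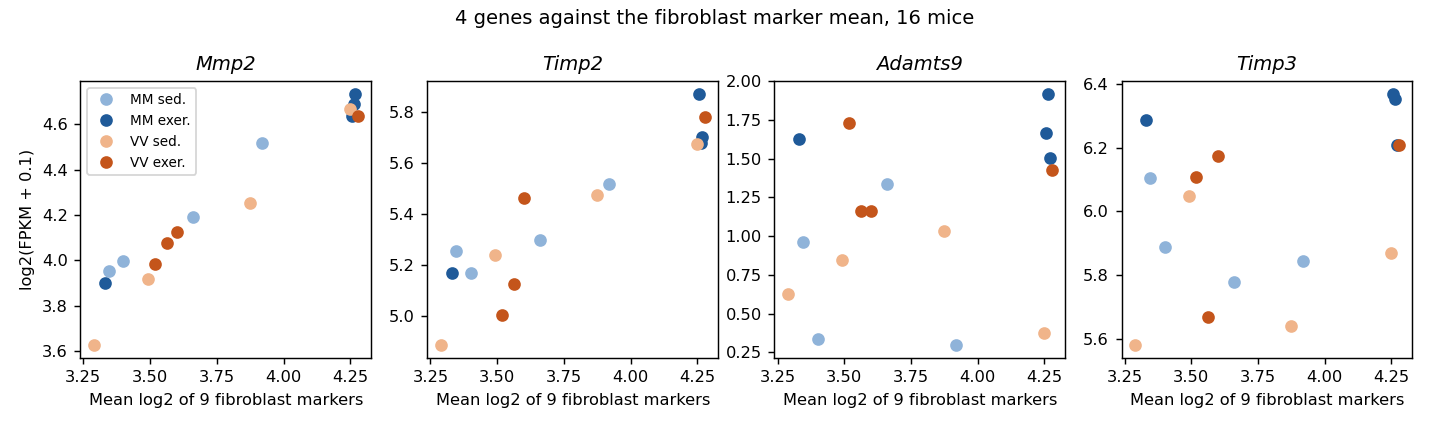
Level of Mmp2, Timp2, Adamts9 and Timp3, as log2(FPKM + 0.1), against the mean log2 level of 9 fibroblast markers, 1 point for each of 16 mice and colours for the 4 groups. Mmp2 (r = 0.97) and Timp2 (r = 0.92) follow the marker mean, and Adamts9 (r = 0.26) and Timp3 (r = 0.36) are spread across it.

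Macrophage and monocyte markers (8 of 11 measured genes at 1 FPKM or more, none at 0 in any mouse) had a mean log2 level of 2.25 at rest and 3.01 after exercise in MM mice, and of 2.50 and 2.47 in VV mice. Their summed FPKM ran from 45.6 to 78.7 and from 63.9 to 148 in MM, and from 35.1 to 114 and from 42.4 to 129.8 in VV. None of the 8 tested was called in any comparison. Timp2 followed them with r = 0.95 and Mmp2 with r = 0.91 (rho 0.95 and 0.87, adjusted permutation p = 0.000104 for both r and 0.000173 for both rho). Mmp14 had r = 0.72 (rho 0.79, adjusted permutation p = 0.006 and 0.00132) and Adamts5 had r = 0.85 (rho 0.89, adjusted permutation p = 0.000347 and 0.00026). Timp4 passed by rho only (r = 0.53, rho 0.59, adjusted permutation p = 0.0996 and 0.0425). Adamts1 had r = 0.37, Adamts9 0.28 and Timp3 0.42, none past the threshold. Endothelial markers stayed between 3.63 and 3.71 in the 4 groups, and no member passed against them over all mice. With group means removed, r against the endothelial list was 0.67 for Adamts5, 0.63 for Mmp14, 0.58 for Mmp2 and 0.53 for Timp2. It was 0.31 for Adamts1, 0.30 for Timp4, -0.17 for Adamts9 and -0.19 for Timp3. These endothelial values with group means removed were not tested. Within the endothelial list Pecam1, an adhesion molecule of endothelial junctions, rose by 0.22 log2 over both genotypes (adjusted p = 0.0395, limma). In the same comparison Cdh5, the junctional VE-cadherin, fell by 0.24 (adjusted p = 0.0113, limma). Of the 9 tested fibroblast markers, Mfap5, a microfibril protein, was the one called, higher by 0.58 over both genotypes (adjusted p = 0.0437, limma). In this comparison 1.98% of all tested genes were called higher.

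The genes most like Adamts9 over the 16 mice were Slc38a2, an amino acid transporter (r = 0.96), Irf2bp2, a transcriptional cofactor (r = 0.94), and Sdc4, which encodes syndecan-4, a membrane heparan sulfate proteoglycan (r = 0.92). With group means removed these were 0.89, 0.85 and 0.87. Mean Slc38a2 was 29.6 FPKM in sedentary and 70.5 FPKM in exercised mice. The genes most like Timp3 were Ahnak, a large membrane-associated scaffold (r = 0.92), Camk2n1, an endogenous inhibitor of CaMKII (r = 0.89), and Ampd3, an AMP deaminase (r = 0.88). With group means removed these were 0.88, 0.81 and 0.76. All 6 were picked as the highest of all tested genes, so their r has no test.

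Sdc4 was also the 1 gene called among the other genes of the pathway. It had a mean of 9.48 FPKM in sedentary and 14.1 FPKM in exercised mice, and rose by 0.57 ± 0.12 log2 over both genotypes (adjusted p = 0.0141, limma). The same list of protease activation also holds the proprotein convertase Furin and the MMP inducer Bsg. Of its 6 tested genes 1 was called higher and none lower, against 1.98% of all tested genes called higher. None of the other pathway genes passed in any comparison. These were 2 tested of the 15 other ADAMTS proteases (Adamts2 at 2.81 and Adamts10 at 2.89 FPKM), 3 of 6 ADAMTS-like proteins, 3 of 17 measured other MMPs (Mmp11, Mmp15 and Mmp28), 6 of 10 ADAM proteases and 5 of 9 other inhibitors and clearance genes. Adam9 was the most abundant protease of these lists, at 30.7 FPKM, and Reck, a membrane inhibitor of MMPs, was at 1.55 FPKM. Collagenases and stromelysins of injured tissue were low, with mean levels of 0.363 FPKM for Mmp3, 0.121 FPKM for Mmp13 and 0.0101 FPKM for Mmp8, which was at 0 in 12 mice.

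Substrates of these enzymes did not pass either. Of the 9 tested proteoglycan and hyaluronan genes, none was called, with a median exercise difference of 0.24 log2 in MM (9 of 9 above 0), -0.10 in VV (2 of 9 above 0) and 0.07 over both genotypes. The difference between genotypes was below 0 for each of the 9, and none of them passed that test. Vcan, which encodes versican, averaged 1.24 FPKM, and Acan, which encodes aggrecan, 0.0525 FPKM. Among the proteoglycans, decorin (Dcn) was highest at 277 FPKM. All 18 basement membrane and glycoprotein genes were tested, none was called, and their median difference was 0.36 log2 in MM, 0.13 in VV and 0.23 over both genotypes. Sparc was the highest of them at 179.6 FPKM.

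Some members overlap other genes, and the sources used here do not give the strand setting of the counting, so reads of overlapping genes may not be separated. Timp3 lies inside Syn3 (0.190 FPKM), Timp1 inside Syn1 (0.0665 FPKM) and Timp4 inside Syn2 (2.25 FPKM), each on the opposite strand. Adamts9 overlaps the antisense gene 9530026P05Rik, at 0.421 FPKM.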

How the data were processed

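Quadriceps RNA from 16 mice was sequenced as stranded poly(A) libraries. The authors deposited 1 table of FPKM values per gene. Their processing notes list the build mm10 and, without roles or order, SAMtools, StringTie, TopHat, FastQC and Cuffdiff 2.2.1. Annotation and strand setting: not given in the sources used here. FPKM sums are shared among genes, so a change in abundant genes shifts all others, and 271 tested entries join several gene names. The table holds no read counts, and errors come from the variation among mice.

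Groups came from the genotype and treatment in the labels. Genes with values in all mice and a mean of at least 1 FPKM (10519) were fitted as log2(FPKM + 0.1) by limma 3.58.1 in R 4.3.3 with trended, robust variances over all 4 groups. No covariate was used, and p-values were adjusted by Benjamini-Hochberg over all tested genes within each of 6 comparisons. Genes called had an adjusted p under 0.05. Timp1 and Adamts4, below that minimum, were compared by exact permutation. The fit was tested on simulated data. Correlations used log2 values, SciPy 1.17.1 and 100000 permutations, and were added after the values were seen. Promoter windows are from RefSeq and gene positions from GENCODE.

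The members, gene lists and markers were chosen with earlier results of these data known. Named genes were all members, up to 4 called genes of each other list, and the 3 genes most correlated with each called member. Levels of uncalled genes in these lists and mouse-level remarks were chosen after their values were seen. Alternatives were another pseudocount, no filter or a filter at 5 FPKM, median-ratio and quantile scaling, plain eBayes, sample weights, the compared groups alone, the title number as a random block, and each mouse left out.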

Additional observations from a re-analysis of the deposited data

Results flagged for a closer look

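In the 40 groups of 4 mice (10 genes in 4 groups), 2 held a mouse far from the other 3 by Dixon's test, which chance flags in about 1 in 20 groups. Mmp2 in exercised MM mice was lowest in mouse 2246-4, at 14.8 FPKM, against 24.7 to 26.5 FPKM in the others. The gap made up 0.847 of the group's range. Timp1 in exercised VV mice was lowest in mouse 2161-7, at 0.307 FPKM, against 0.580 to 0.602 FPKM in the others, a gap of 0.927 of the range.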

How the results depend on the processing

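Adamts9 over both genotypes passed in all 23 alternatives that tested it, and its log2 difference stayed between 0.56 and 0.90. The count of members called for exercise in MM was 1, and fell to 0 with no filter, with the 5 FPKM minimum (Adamts9 untested), with the title number as a random block (Adamts9 adjusted p = 0.0830) and with the compared groups alone. For exercise over both genotypes it was 2, and 1 with no filter, the 5 FPKM minimum, plain eBayes and the title-number block (Timp3 adjusted p = 0.106). Leaving out 1 mouse at a time gave 0 to 1 members called in MM and 1 to 2 over both genotypes. The count of 2 without mouse 2161-7 was made of Adamts9 and Adamts1. The cause was not tested. In the other 4 comparisons 0 members were called in every alternative. The labels give no replicate numbers, and the title number, shared by some mice of different groups, was used as the only block.

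Signs turned only in differences that did not pass. With median-ratio and quantile scaling, the Adamts1 difference of the exercise effects became 0.031 and 0.018 and Adamts9 at rest 0.016 and 0.0059 log2. With sample weights, Mmp2 and Timp2 for exercise in VV became -0.0052 and -0.086, Adamts9 and Mmp2 at rest 0.12 and 0.077, and Adamts1 after exercise -0.013. With 1 mouse left out, the difference of the exercise effects ran from -0.21 to 0.32 for Adamts1 and -0.23 to 0.051 for Timp4. At rest it ran from -0.16 to 0.19 for Adamts9, -0.11 to 0.15 for Timp2, -0.23 to 0.11 for Mmp2, -0.016 to 0.26 for Adamts5, -0.026 to 0.29 for Mmp14 and -0.089 to 0.23 for Adamts4. After exercise it ran from -0.11 to 0.17 for Timp4, -0.23 to 0.036 for Mmp14 and -0.00013 to 0.53 for Adamts1. For exercise in VV it ran from -0.017 to 0.30 for Mmp14, -0.12 to 0.14 for Timp2 and -0.073 to 0.27 for Mmp2, and for exercise in MM from -0.0074 to 0.32 for Adamts4.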
